A study of Mus musculus with 6 samples.

Results

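The expression of 10 genes coding for components of microfibrils and elastic fibers was examined in mouse embryonic fibroblasts (MEFs) with and without MCM8, a helicase-family protein involved in DNA repair. The genes were Ltbp1, Ltbp2, Ltbp3, Ltbp4, Fbn1, Fbn2, Eln, Fbln2, Fbln5 and Mfap5. They were picked by their common role in the extracellular matrix and because Ltbp2 had been seen to be higher in KO MEFs, so the difference of Ltbp2 between genotypes chose the group and is described here and supports nothing, as are those of the other members. No p-value is given for a member, and how many of them pass a rule applied to all genes is given as a count, beside the share of all genes that do. All 10 were listed among the 55565 genes of the deposited tables and all 10 were among the 26898 genes with reads in at least 1 library, 8 of them with a mean of at least 1 CPM (counts scaled to a common library size). RNA was sequenced from 3 WT and 3 Mcm8 KO libraries of MEFs. The fibroblasts were grown from the trunks of embryos of day 13.5, after the head, tail, limbs, heart and liver had been taken away. The embryos came from crosses of heterozygous mice of a mixed C57BL/6J and ICR background. In the KO allele 1 exon of Mcm8 was removed by CRISPR-Cas9. Cells of both genotypes had been infected with an SV40 lentivirus and kept under puromycin, so all values are those of immortalized cells. The sources call the libraries biological repeats and do not say whether they came from separate embryos or cultures, so the spread between them may be technical. SDs give the spread of a gene over these libraries. SEs and p-values come from a fit that used a spread shared along a trend over genes, not the spread of each gene.

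Microfibrils are thin filaments of the extracellular matrix whose backbone is made of fibrillins. They stand alone in some tissues and elsewhere form the scaffold on which elastin is laid down and cross-linked into elastic fibers, which let vessels, lung and skin recoil. The latent TGF-β binding proteins (LTBPs) resemble fibrillins and attach to microfibrils. Most of them also hold TGF-β in its latent form, so that the matrix acts as a store of this growth factor. Fibroblasts are a main source of these proteins.

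Mcm8 itself had 176, 233 and 238 counts in the WT libraries and 89, 74 and 66 in the KO libraries, and was lower in KO MEFs (log2 fold change -1.75, SE 0.16, adjusted p = 4.45e-26, edgeR quasi-likelihood test). Library totals ranged from 12722979 to 19019695 counts in WT and from 15954793 to 21022755 in KO. The library WT1 stood apart: a chi-square test of counts over genes gave 14.3 and 13.2 per degree of freedom for WT1 against WT2 and WT3, 4.4 for WT2 against WT3, and from 2.63 to 3.05 between KO libraries. Each library held RNA of Xist, which is made in female cells, as well as of Y-linked genes, and their amounts went with genotype, with Xist going from 1196 in WT to 481 CPM in KO libraries and Ddx3y from 7.77 to 42.6 CPM. Sex composition and genotype cannot be told apart in these libraries. The CPM of 9 fibroblast markers summed to 19693 or more in WT and 20574 or more in KO, most of it from Col1a1, Col1a2 and Vim, whereas Lum was at no more than 1.86 CPM in any library and Dcn at no more than 15.9 CPM. Thy1 was lower in KO MEFs (log2 fold change -1.03, adjusted p = 3.44e-47, edgeR). The 4 mesothelial markers summed to between 6.27 and 7.13 CPM in WT and between 49.3 and 56.0 CPM in KO, where Msln alone went from a mean of 2.88 CPM in WT to 44.9 CPM in KO, and the 4 epithelial markers to between 0.499 and 1.10 CPM in WT and between 5.53 and 6.56 CPM in KO. The 5 cartilage markers summed to between 13.97 and 16.2 CPM in WT and between 35.8 and 36.5 CPM in KO, with Col9a1 and Matn1 at 0 counts in every library. The 6 smooth muscle markers summed to between 1692 and 1874 CPM in WT and between 1319 and 1378 CPM in KO. The 4 endothelial markers gave at most 3.99 CPM in WT and 4.09 CPM in KO with Tie1 at 0, and the 4 macrophage markers at most 2.52 CPM and 3.40 CPM with Adgre1 at 0. By the adjusted p (edgeR), 2 of 4 mesothelial, 2 of 4 epithelial and 2 of 5 cartilage markers were higher in KO MEFs, 1 of 6 smooth muscle markers (Acta2) was lower, 2 of 9 fibroblast markers were higher and 3 lower, and no endothelial or macrophage marker passed. The part of these other cell types in the values of the members was not tested. In bulk RNA, fewer cells of a type and less RNA per cell cannot be told apart.

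The members differed widely in level, given as FPKM, which divides the fragments of a gene by its length and by the size of the library and so allows genes to be set beside each other. In WT MEFs the highest was Fbln2 at 228 ± 18.8 FPKM (mean ± SD, n = 3), above 99.5% of all genes tested. Fbn1 and Fbln5 came next, at 97.7 ± 15.3 and 88.0 ± 1.95 FPKM, with ranges that overlapped. They were followed by Ltbp1 at 50.7 ± 3.19 FPKM. Fbn2 at 16.7 ± 2.72 FPKM and Ltbp3 at 12.9 ± 1.32 FPKM overlapped in range, although Fbn2 was the higher of the pair in each WT library. Ltbp4 at 6.13 ± 0.5003 FPKM and Ltbp2 at 3.76 ± 0.206 FPKM were lower still. Mfap5 and Eln were close to absent, at 0.0581 ± 0.0257 and 0.0453 ± 0.0351 FPKM, and their ranges overlapped. In KO MEFs no neighbors in the order overlapped in range. The order had changed at 2 places: Ltbp1 stood above Fbln5, and Ltbp2 stood above Ltbp4. The summed level of all 10 was 504 ± 40.3 FPKM in WT and 587 ± 10.8 FPKM in KO, and Fbln2 gave the greatest part of both sums.

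**Figure D1:**
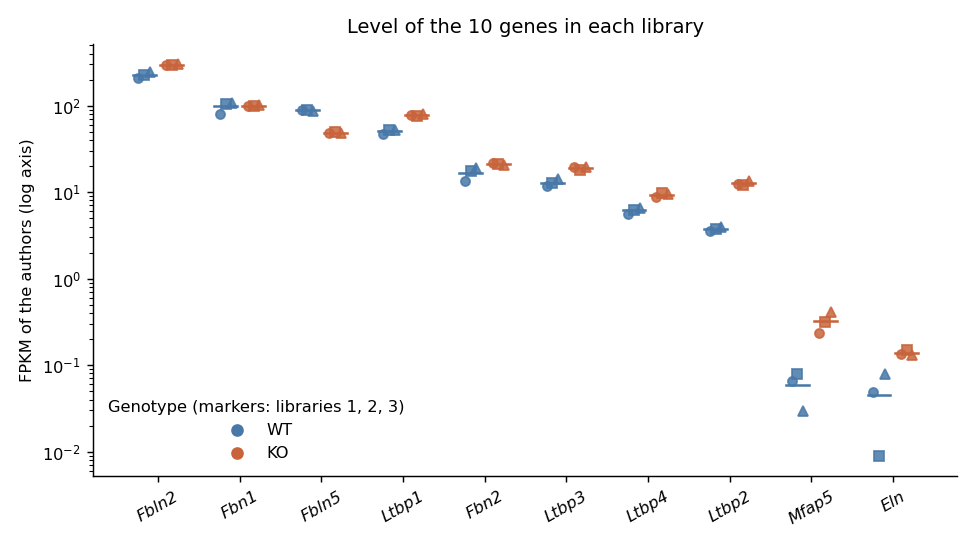
Level of each of the 10 members in every library, in FPKM on a log axis, with WT in blue, KO in orange, a marker shape for each library number and a line at the mean of the genotype. Ltbp2 and Mfap5 show the widest gaps between genotypes, the Fbn1 points of the genotypes overlap, and Fbln5 is the member whose KO points, near 48.7 FPKM, lie below its WT points, near 88.0 FPKM.

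Among the LTBPs, Ltbp2 differed most. It lies at chr12:84829986-84923306 on the minus strand (GRCm39). LTBP-2 binds to fibrillin microfibrils but, unlike its relatives, is not known to hold latent TGF-β. Its level was 3.58, 3.71 and 3.99 FPKM in WT1, WT2 and WT3 and 12.3, 12.1 and 13.4 FPKM in KO1, KO2 and KO3. The libraries fell into separate ranges, with every KO library above every WT library. The counts behind these levels were 374, 427 and 614 in WT and 2147, 1650 and 1769 in KO, or 30.9 ± 1.86 CPM and 104 ± 5.99 CPM. Mean CPM in KO was 3.35 times that in WT, and the fitted log2 fold change was 1.74 (SE 0.08). The spread between libraries was 6.03% of the mean in WT and 5.78% in KO.

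Because Ltbp2 is the member on which the group was chosen, the 250 bases before its start site are shown for reference, from RefSeq on build GRCm38.p6, minus strand, chr12:84876492-84876741. Capitals mark matches on either strand to the GC box GGGCGG, the element bound by SP1 and related factors, and to the SMAD box CAGAC, a short element that SMAD proteins of the TGF-β pathway can bind.
Ltbp2: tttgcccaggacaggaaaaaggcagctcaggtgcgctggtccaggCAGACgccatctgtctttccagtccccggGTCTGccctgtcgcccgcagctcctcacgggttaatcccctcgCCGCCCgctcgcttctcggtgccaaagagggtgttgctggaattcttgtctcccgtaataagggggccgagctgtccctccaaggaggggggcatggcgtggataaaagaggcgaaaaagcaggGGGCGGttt
The window held 2 matches of each, and 16 CpG dinucleotides at 61.6% GC. Of the 32851 promoter windows of this length in the RefSeq set, 32.7% held a GC box and 42.2% a SMAD box, so both are common. Windows of 7 of the 10 members were examined, at 11 start sites. No window of Eln, Mfap5 or Fbn2 was examined, so nothing is said of theirs. The TATA box TATAAA occurred in 12.4% of all windows, the AP-1 site TGANTCA in 6.75% and the TEAD site CATTCC in 12.6%. None of the 11 member windows examined held any of them.

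The other LTBPs were higher in KO MEFs by smaller factors. Ltbp1 (chr17:75312563-75699507, plus strand), a carrier of latent TGF-β, was at 47.0, 52.3 and 52.8 FPKM in WT and 78.3, 75.2 and 79.8 FPKM in KO, a log2 fold change of 0.62 (SE 0.06). Ltbp3 (chr19:5790932-5808560, plus strand), which also carries latent TGF-β and is needed for normal bone and teeth, was at 11.6, 12.7 and 14.3 FPKM in WT and 19.4, 18.0 and 19.6 FPKM in KO, a log2 fold change of 0.56 (SE 0.07). Ltbp4 (chr7:27004561-27037117, minus strand), which helps fibulin-5 to assemble elastic fibers, was at 5.59, 6.22 and 6.58 FPKM in WT and 8.69, 9.70 and 9.42 FPKM in KO, a log2 fold change of 0.59 (SE 0.09). In each of these genes every KO library lay above every WT library, and the fold changes ranged from 0.56 to 0.62.

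The differing sizes moved the composition of the LTBP transcripts. The LTBPs together came to 73.4 ± 5.05 FPKM in WT and 119 ± 3.63 FPKM in KO, 1.62 times as much. Ltbp2 made up 5.28%, 4.96% and 5.14% of this sum in the WT libraries and 10.4%, 10.5% and 11.0% in the KO libraries. Its share was thus 5.13 ± 0.160% in WT and 10.6 ± 0.328% in KO. Ltbp1 held the largest share in both genotypes, 69.0 ± 0.930% in WT and 65.5 ± 0.379% in KO. Ltbp3 took 17.5 ± 0.783% and 16.0 ± 0.333%. Ltbp4 took 8.34 ± 0.120% and 7.82 ± 0.568%, and its ranges of share overlapped, from 8.24% to 8.48% in WT and from 7.32% to 8.43% in KO.

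**Figure D2:**
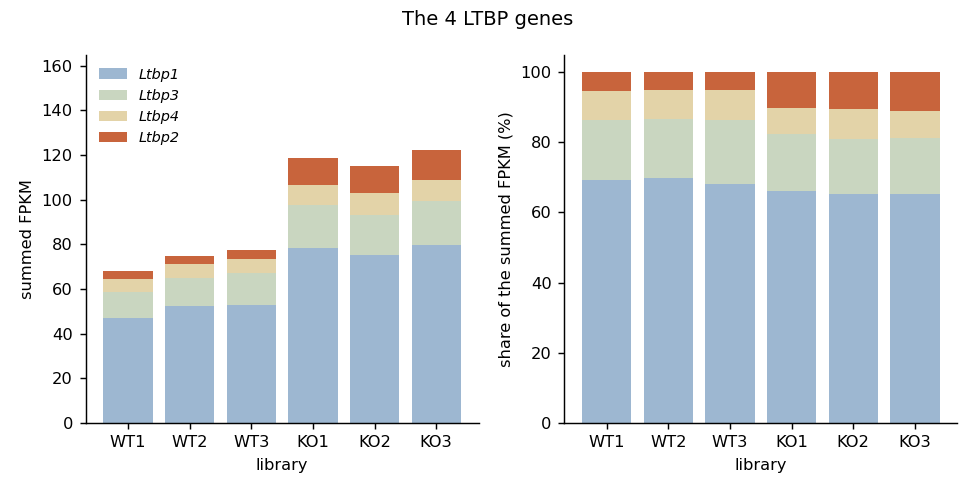
Stacked bars of the level of Ltbp1, Ltbp3, Ltbp4 and Ltbp2 in each of the 6 libraries, as summed FPKM on the left and as percent of the sum on the right. The Ltbp2 share lies near 5.13% in the WT libraries and near 10.6% in the KO libraries, and Ltbp1 holds the largest share in all of them.

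The fibrillins, which form the backbone of the microfibril, differed less. Fbn1 (chr2:125142514-125349913, minus strand), the main fibrillin of postnatal tissue and the gene altered in Marfan syndrome, was at 80.1, 105.6 and 107 FPKM in WT and 98.7, 99.2 and 102 FPKM in KO. Its genotypes overlapped, with all KO libraries between the lowest and the other WT libraries, and the log2 fold change was 0.03 (SE 0.06). Fbn2 (chr18:58141695-58343559, minus strand), a fibrillin made chiefly in the embryo, was at 13.6, 17.5 and 18.8 FPKM in WT and 21.7, 21.4 and 20.7 FPKM in KO. Its libraries did not overlap, the log2 fold change was 0.35 (SE 0.07), and its share of the fibrillin sum was 14.6 ± 0.331% in WT and 17.5 ± 0.569% in KO. The sum itself was 114 ± 17.9 FPKM in WT and 121 ± 1.08 FPKM in KO.

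Both fibrillins varied widely between WT libraries. The spread in CPM was 15.9% of the mean for Fbn1 and 16.7% for Fbn2 in WT, where counting error alone would give 0.768% and 1.79%, and only 1.56% and 2.45% in KO. The low library was WT1 in both cases. WT1 differed from WT2 and WT3 with gene length over the whole transcriptome: its median log2 difference from them was 0.249 for the 1023 genes of up to 2000 bases and fell step by step to -0.218 for the 1109 genes above 10000 bases (genes of at least 10 CPM). Fbn1 and Fbn2, with gene lengths of 12128 and 13215 bases, both stood at -0.42 in WT1, below the median of that class. Of the other members with at least 1 CPM, the log2 difference was -0.21 for Ltbp3, -0.20 for Ltbp4, -0.19 for Fbln2, -0.17 for Ltbp1, -0.11 for Ltbp2 and 0.00 for Fbln5. Without WT1 the log2 fold change was -0.09 for Fbn1, of the opposite sign, and 0.22 for Fbn2, and the values of the LTBPs were 0.56, 1.70, 0.49 and 0.53 for Ltbp1 to Ltbp4. The median log2 fold change between genotypes showed no such course with length, with values from -0.022 to 0.001 over the classes.

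**Figure D3:**
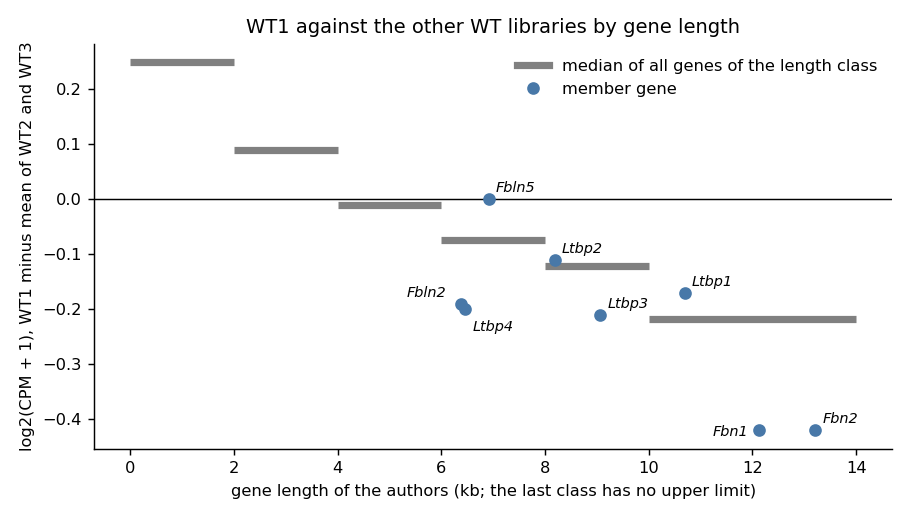
Log2 difference of the library WT1 from the mean of WT2 and WT3 (vertical axis, log2(CPM + 1)) against gene length in kb (horizontal axis), with gray bars for the median of each length class of all genes of at least 10 CPM and named points for the 8 members with a mean of at least 1 CPM. The medians run from 0.249 for short genes to -0.218 for long genes, and Fbn1 and Fbn2 lie lowest, at -0.42.

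The fibulins differed between genotypes in opposite directions. Fbln2 (chr6:91189437-91249522, plus strand) codes for fibulin-2, which binds fibrillin, elastin and other matrix proteins. It was at 208, 229 and 246 FPKM in WT and 296, 293 and 306 FPKM in KO, a log2 fold change of 0.39 (SE 0.06) with no overlap. Fbln5 (chr12:101712824-101785314, minus strand) codes for fibulin-5, which brings elastin and the cross-linking enzymes to the microfibril. It was at 88.4, 89.8 and 85.9 FPKM in WT and 48.04, 49.3 and 48.7 FPKM in KO. It was the single member whose KO libraries all lay below the WT libraries. The log2 fold change was -0.85 (SE 0.07), from 611 ± 10.7 CPM to 338 ± 3.87 CPM, or 55.4% of the WT level. It was also the most even member, with a spread of 1.75% of the mean in WT and 1.14% in KO. The share of Fbln5 in the sum of Fbln2 and Fbln5 was 28.0 ± 1.96% in WT and 14.03 ± 0.330% in KO.

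As the member that ran against the rest, Fbln5 is shown with the 250 bases before each of its start sites in RefSeq (GRCm38.p6, minus strand). Fbln5-a is chr12:101818485-101818734 and Fbln5-b is chr12:101819120-101819369, with capitals as for Ltbp2.
Fbln5-a: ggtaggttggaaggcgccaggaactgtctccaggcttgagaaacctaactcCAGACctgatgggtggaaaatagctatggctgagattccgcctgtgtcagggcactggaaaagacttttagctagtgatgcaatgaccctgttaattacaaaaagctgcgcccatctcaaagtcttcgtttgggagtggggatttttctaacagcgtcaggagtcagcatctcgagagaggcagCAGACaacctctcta
Fbln5-b: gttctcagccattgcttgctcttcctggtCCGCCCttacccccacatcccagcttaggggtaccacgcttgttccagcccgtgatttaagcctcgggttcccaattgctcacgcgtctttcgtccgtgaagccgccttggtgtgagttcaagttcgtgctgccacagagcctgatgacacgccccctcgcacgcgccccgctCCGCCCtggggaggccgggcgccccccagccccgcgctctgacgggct
The first window held 2 SMAD boxes and no GC box at 49.6% GC, and the second 2 GC boxes and no SMAD box at 65.2% GC with 21 CpG dinucleotides. Ltbp2, on the same chromosome, lies 16.8 Mb from Fbln5. In a check against GENCODE transcripts of the same build, the bases after the start site were found in a transcript for Ltbp2 but for neither Fbln5 window. The gene tables do not tell which start site was used.

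Elastin and the microfibril-associated glycoprotein MAGP-2 were measured from few reads. Eln (chr5:134731447-134776177, minus strand), which codes for elastin, the rubber-like core of the elastic fiber, had 5, 1 and 12 counts in WT and 23, 20 and 17 in KO. The libraries did not overlap, but the WT values ran from 0.00879 to 0.0787 FPKM. The ratio of KO to WT per library total was 2.86, with a 95% exact interval for counting error alone of 1.67 to 5.15, and the fitted log2 fold change was 1.51 (SE 0.52), which moved to 1.06 without WT2 and to 2.27 without WT3. Mfap5 (chr6:122482804-122506249, plus strand), which codes for MAGP-2, a small protein bound along microfibrils, had 3, 4 and 2 counts in WT and 18, 19 and 24 in KO. Its ratio was 5.82 (95% exact interval 2.87 to 13.3) and its log2 fold change 2.48 (SE 0.60). The order of Mfap5, Eln and Ltbp2 by fold change was not stable: without WT3 the log2 value of Mfap5 was 2.11, below that of Eln, and with log2(FPKM + 1) it was 0.32, below the 1.51 of Ltbp2. In KO MEFs Mfap5 reached only 0.323 ± 0.0903 FPKM, and Eln only 0.137 ± 0.00942 FPKM.

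**Figure D4:**
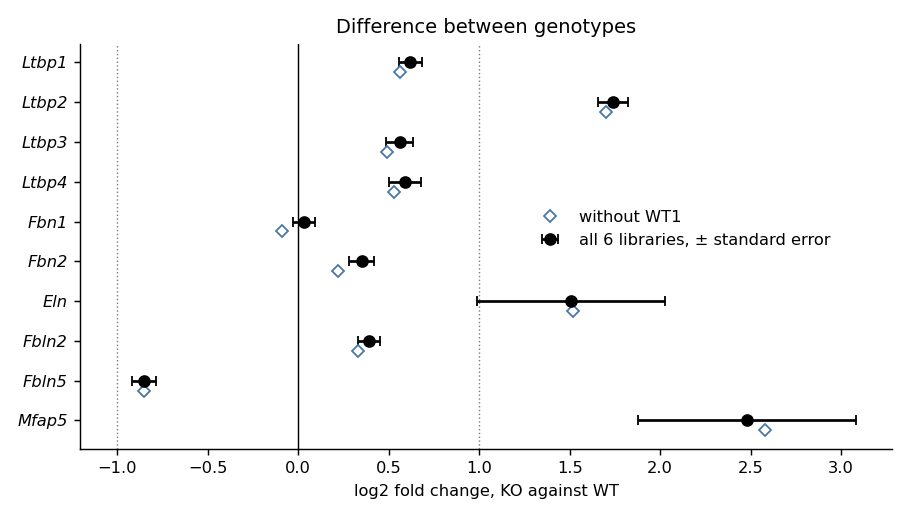
Log2 fold change of each member, KO against WT, with filled points for the fit to all 6 libraries, bars of ± 1 standard error, and open diamonds for the fit without WT1. Dotted lines stand at -1 and 1. Mfap5 (2.48), Ltbp2 (1.74) and Eln (1.51) lie beyond 1, Eln and Mfap5 with wide bars, and Fbln5 (-0.85) is the single member well below 0.

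A gene was counted as differentially expressed (DEG) at an absolute log2 fold change above 1 with a Benjamini-Hochberg adjusted p below 0.05 over all genes tested. By this rule Ltbp2, Eln and Mfap5 were counted as higher in KO MEFs and no member as lower, where 1.75% of all genes tested were higher and 0.665% lower. Eln was not counted, which left 2 members, with DESeq2, with filterByExpr, with no filter, with an FPKM above 0 in every library, and without WT2, KO1, KO2 or KO3. By the adjusted p alone 8 members were counted as higher and 1, Fbln5, as lower, where the background was 4.97% and 4.03%. The number higher was 7, without Eln, in the same alternatives. The KO libraries lay above all WT libraries in 8 members and below them in 1, against 11.6% and 10.1% of all genes. The members were chosen with these differences known, so nothing is read from their counts. Their median log2 fold change was 0.57, beside 0.01 for all genes tested.

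The other genes of the microfibril, elastic fiber and TGF-β store were taken as 6 lists of 53 genes in all, 46 of them with a mean of at least 1 CPM. Of these 53, 13 rose in KO MEFs, 9 fell and 31 did not pass the adjusted p (edgeR quasi-likelihood test, adjusted over all genes), with a median log2 fold change of 0.10. Over all genes tested 4.97% were higher and 4.03% lower by the same rule, and of the 13222 genes with a mean of at least 1 CPM, 1201 were higher and 1042 lower. Only Efemp1 and Itgb8 were DEGs that were higher and Mfap4 a DEG that was lower, the last not without KO3, where its log2 fold change was -0.98, nor in a test against a 2-fold change.

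Of the 20 partners of microfibrils and elastic fibers, 7 rose, 2 fell and 11 did not pass. Efemp1, which codes for fibulin-3, rose from 56.7 to 141 CPM (log2 fold change 1.32, SE 0.08, adjusted p = 2.25e-61, edgeR). With filterByExpr its adjusted p was 3.45e-08 (edgeR), so the size of these p-values depends on the gene filter. Its relative Efemp2, which codes for fibulin-4 and is needed for elastin cross-linking, rose by less, from 164 to 197 CPM (0.26, adjusted p = 0.00496, edgeR). Hmcn1, a large fibulin-related protein, rose from 11.1 to 19.4 CPM (0.79, SE 0.12, adjusted p = 7.39e-09, edgeR). The emilins, glycoproteins at the border of elastin and microfibril, rose together: Emilin1 from 143 to 187 CPM (0.39, adjusted p = 2.21e-06, edgeR) and Emilin2 from 27.0 to 44.8 CPM (0.73, adjusted p = 1.03e-12, edgeR). Adamtsl4, which binds fibrillin-1 and aids its deposition, rose from 13.1 to 19.8 CPM (0.59, adjusted p = 2.85e-05, edgeR). Fn1, coding for the fibronectin on which microfibrils are laid down by cells in culture, rose from 6611 to 8109 CPM (0.29, adjusted p = 1.23e-06, edgeR), but the call was lost with DESeq2 at the same fold change (adjusted p = 0.364). The low library was again WT1, at 4958.5 CPM, and without it the log2 fold change was 0.12. Mfap4, a glycoprotein that binds elastin and fibrillin, fell from 28.1 to 13.8 CPM (-1.03, SE 0.11, adjusted p = 2.48e-18, edgeR), and Bgn, the proteoglycan biglycan, fell from 1759.9 to 1240 CPM (-0.51, adjusted p = 6.67e-15, edgeR).

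Of the 5 enzymes that cross-link elastin and collagen, Loxl4 rose from 58.8 to 88.6 CPM (0.59, adjusted p = 1.28e-11, edgeR), whereas Loxl3 fell from 288 to 196 CPM (-0.56, adjusted p = 1.16e-13, edgeR) and Lox fell from 1328 to 1154 CPM (-0.20, adjusted p = 0.014, edgeR). The call of Lox was lost without WT2 (adjusted p = 0.0519), without KO1 (0.139) and without KO3 (0.264). The enzymes thus moved in both directions.

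Of the 7 TGF-β ligands, which are the cargo of the LTBPs, and receptors, 2 rose, 1 fell and 4 did not pass. Tgfb2 rose from 12.6 to 19.2 CPM (0.60, SE 0.12, adjusted p = 2.64e-05, edgeR). Tgfb1 was at 50.2 CPM in WT and 49.4 CPM in KO (-0.03, adjusted p = 0.903, edgeR) and Tgfb3 at 84.7 and 84.0 CPM (-0.01, adjusted p = 0.957, edgeR). Tgfbr2, the receptor that binds the ligand first, rose from 157 to 195 CPM (0.31, adjusted p = 3.17e-04, edgeR), and Eng, the co-receptor endoglin, fell from 18.0 to 12.4 CPM (-0.54, adjusted p = 3.16e-04, edgeR).

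Among 12 activators of latent TGF-β and matrix proteases, 2 rose, 2 fell and 8 did not pass. Itgb8, a subunit of an integrin that activates latent TGF-β, rose from 1.77 to 5.76 CPM (1.71, SE 0.24, adjusted p = 6.5e-11, edgeR). Its partner subunit Itgav fell from 441 to 355 CPM (-0.31, adjusted p = 8.69e-05, edgeR), and Itgb5, another partner of Itgav, fell from 387 to 316 CPM (-0.29, adjusted p = 3.76e-04, edgeR). Mmp2, a protease that can cut fibrillin and elastin, rose from 97.9 to 139 CPM (0.51, adjusted p = 6.2e-10, edgeR).

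Of 6 genes that TGF-β is known to induce, 1 rose, 2 fell and 3 did not pass. Ccn2, coding for connective tissue growth factor, fell from 210 to 128 CPM (-0.72, SE 0.07, adjusted p = 1.79e-21, edgeR). Tgfbi, a matrix protein, rose from 80.7 to 109 CPM (0.43, adjusted p = 5.81e-07, edgeR). None of the 3 genes of the elastin receptor complex passed the test.

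**Figure D5:**
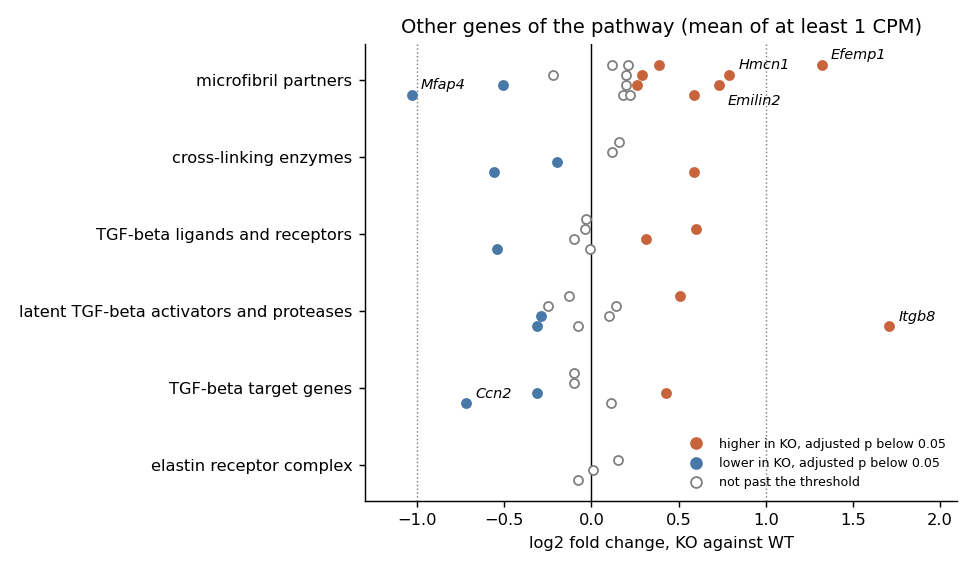
Log2 fold change, KO against WT, of the 46 other pathway genes with a mean of at least 1 CPM, in 6 rows by list. Orange (higher in KO) and blue (lower) points passed the adjusted p of 0.05, open points did not, and dotted lines stand at -1 and 1. Efemp1 (1.32) and Itgb8 (1.71) lie highest among those that passed and Mfap4 (-1.03) lowest.

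Some members share genomic sequence with a neighbor on the opposite strand, and the sources do not say that counting used strand, so reads in the shared part cannot be assigned. Ltbp2 shares 764 bases with the non-coding RNA D030025P21Rik, whose counts were 2, 4 and 3 in WT and 8, 13 and 14 in KO, 0.630% of those of Ltbp2. Its ratio of KO to WT was 3.34 (95% exact interval 1.57 to 7.90). Fbn1 shares 2793 bases with the non-coding RNA Gm9913, which had 14, 11 and 20 counts in WT and 42, 40 and 36 in KO, a ratio of 2.25 (95% exact interval 1.58 to 3.25). These KO libraries lay above the WT libraries, whereas those of Fbn1 itself overlapped them. Eln shares 282 bases with Gm30003, which had 1 count in WT and 1 in KO. The pseudogene Gm6276, of 579 bases within Ltbp1 on the same strand, had 0 counts in WT and 4 in KO. Within 200 kb of Ltbp2, 6 other genes had a mean of at least 1 CPM. Their log2 fold changes ran from -0.25 to 0.20 and none passed the adjusted p (edgeR), the lowest being 0.0721 for Ylpm1. Fbn1 lies 7.31 Mb from Mcm8 on the same chromosome.

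Genes of at least 10 CPM were also ordered by the Pearson correlation of their log2 CPM with that of Ltbp2 over the 6 libraries. The libraries share the split by genotype, so any gene with a clear difference ranks high and the order is a description. Of 9097 genes, the closest were Slco2a1 (r = 0.9981), a prostaglandin transporter that was at 4.99 CPM in WT and 28.0 CPM in KO, Dkk3 (0.9981), a secreted protein of the Dickkopf family, Gpc1 (0.9980), the heparan sulfate proteoglycan glypican-1, Acp1 (0.9977), a phosphatase, and Cd34 (0.9973), a surface glycoprotein that was at 13.1 CPM in WT and 36.2 CPM in KO. Among the members r with Ltbp2 was from 0.95 to 0.99 for Ltbp1, Ltbp3, Ltbp4, Fbln2 and Mfap5, 0.88 for Eln, 0.80 for Fbn2, 0.21 for Fbn1 and -1.0 for Fbln5.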

How the data were processed

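RNA of 3 WT and 3 Mcm8 KO libraries of MEFs was analysed. Per the study's methods and the submitters' processing notes, reads were cleaned with fastp, aligned with HISAT2 2.0.5 and counted per gene with featureCounts 1.5.0-p3 (Ensembl 106). The authors deposited raw counts and, in a second table, FPKM values, which are counts divided by gene length and library size. Strand use in counting is not given in the sources used here, and coordinates are those of the deposited tables (GRCm39). The promoter sequences come from RefSeq on GRCm38.p6, and no coordinates were converted.

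Counts of the 26898 genes above 0 FPKM in at least 1 library were fitted with edgeR 4.0.16 (R 4.3.3, TMM factors, quasi-likelihood test, no covariates), and p-values were adjusted by Benjamini-Hochberg over all of them. The fit returned an infinite prior df: the spread of each gene is that of the trend, and SEs and p-values of genes more variable than that are too small. CPM used TMM-scaled totals. Values after ± are SDs over 3 libraries, and SEs are those of the log2 fold change. With 3 libraries a genotype, the smallest two-sided p of an exact permutation is 0.1. Intervals of low counts are exact, at 95%, and cover counting error only. A gene's length in the tables is its annotated length.

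The members and lists were chosen with earlier results of these data known. Named pathway genes are Tgfb1, Tgfb2, Tgfb3, Lox and Fn1 and up to 15 genes past the adjusted p whose mean reached 1 CPM and whose log2 fold change was beyond 0.5 in either direction. Emilin1, Efemp2, Tgfbr2, Itgav, Itgb5 and Tgfbi, which passed the adjusted p, were added after their values were seen. Some results are not reported here. Alternatives were DESeq2 1.42.0, a test against a 2-fold change, RLE scaling, other gene filters, leaving out each library, a block for the replicate number, and pseudocounts of 1 and 0.1 on FPKM. Tables and figures used Python 3.11.15 with pandas 2.3.3, SciPy 1.17.1 and matplotlib 3.10.9.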

Additional observations from a re-analysis of the deposited data

How the results depend on the processing

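The log2 fold change of Ltbp2 lay between 1.51 and 1.79 over all settings. The values ran from 0.56 to 0.65 for Ltbp1, 0.49 to 0.65 for Ltbp3, 0.53 to 0.65 for Ltbp4, 0.22 to 0.45 for Fbn2, 0.33 to 0.46 for Fbln2 and -0.87 to -0.84 for Fbln5, and from -0.09 (without WT1) to 0.11 for Fbn1. With log2(FPKM + 1) the difference was 1.51 for Ltbp2, 0.12 for Eln and 0.32 for Mfap5, and with log2(FPKM + 0.1) 0.74 for Eln and 1.41 for Mfap5, as a pseudocount shrinks low genes. Leaving out 1 library at a time gave 1.06 (without WT2) to 2.27 (without WT3) for Eln, which was past the DEG thresholds in 4 of 13 alternatives, and 2.11 (without WT3) to 2.78 (without WT2) for Mfap5. In the test against a 2-fold change, which asks for more than the DEG rule, 1 member was higher as a DEG, 1 was higher by adjusted p and 0 were lower. There 2 other pathway genes were higher by adjusted p, 0 were lower, 0 were lower DEGs, and over all genes 157 were higher and 43 lower, in place of 472 and 179. Without WT1, 2 members in place of 1 were lower by adjusted p, the added one being Fbn1, and over the libraries left out the number ran from 1 to 2. The number of other pathway genes that were lower DEGs ran from 0 (without KO3) to 1. The call of Fn1 was lost with DESeq2, with filterByExpr (adjusted p = 0.105) and with an FPKM above 0 in every library (0.106), and the cause was not tested. The values of Tgfb1 and Tgfb3, near 0, ran from -0.09 to 0.01 for Tgfb1 (positive without KO1 or KO3) and from -0.05 to 0.05 for Tgfb3 (positive without WT2) as libraries were left out. With filterByExpr the adjusted p-values were larger than in the main fit, though the calls stood: 3.45e-08 for Efemp1, 4.66e-06 for Ccn2, 3.94e-05 for Bgn and 2.44e-06 for Mcm8 (edgeR). With DESeq2 they were 1.06e-51, 5.98e-21, 2.97e-16 and 1.16e-16. DESeq2 called 357 genes higher and 130 lower. The same number in both genotypes did not pair the libraries (correlations of deviations -0.025, -0.0157 and 0.0373), and a fit with the replicate block gave 445 and 158 DEGs and the same counts of members, 3 and 8 higher, with Ltbp2 at 1.75. RLE scaling moved the median log2 fold change by -0.000693. Eln and Mfap5 rest on at most 24 counts in a library, which limits their precision.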
